A study of Homo sapiens with 12 samples.

Results

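Keratins are the proteins of the intermediate filaments of epithelial cells, and 7 keratin genes were followed here in MIA PaCa-2 cells, an established line from a human pancreatic carcinoma. They were taken by symbol (KRT7, KRT8, KRT10, KRT18, KRT19, KRT80 and KRT81) from the 63086 genes of the deposited expression table, and all 7 were among the 15987 genes that averaged 10 or more normalised counts and were tested. RNA was sequenced from 4 lines with 3 libraries each. WT cells were not edited. The CRISPR Control line went through CRISPR-Cas9 editing and carried only a silent change in TIMP1, which encodes a secreted inhibitor of metalloproteinases. TIMP1 KO 1 and TIMP1 KO 2, below KO 1 and KO 2, were knockout clones cut within exon 4 of TIMP1, so KO 1 and KO 2 each stand for a single clone. The labels name no drug or cytokine treatment, and cells were harvested before they were confluent. The titles name separate biological replicates, but no source used here says that they were separate cultures, so the p-values measure only the spread between these libraries.

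A keratin filament needs a type I and a type II keratin in equal amounts, because the building block is a pair of the 2 types. KRT8 with KRT18 is the pair of simple, single-layered epithelia, and gland and duct cells add KRT7 (type II) and KRT19 (type I), which are used as markers of pancreatic ducts and of ductal tumours. KRT10 (type I) belongs to the upper layers of the epidermis, KRT80 is a type II keratin of several epithelia, and KRT81 is a type II hair keratin. KRT10, KRT18 and KRT19 are thus the type I members here, and KRT7, KRT8, KRT80 and KRT81 the type II members.

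The members lie in the keratin clusters of chromosomes 12 and 17 (GRCh38, gene models of GENCODE). KRT8 (12:52897187-52949954, minus strand) and KRT18 (12:52948871-52952906, plus strand) are neighbours whose gene models overlap by 1084 bases on opposite strands. KRT80 (12:52168996-52192014, minus), KRT7 (12:52232520-52252186, plus) and KRT81 (12:52285913-52291534, minus) sit upstream in the same cluster. KRT10 (17:40818117-40822614, minus) and KRT19 (17:41523617-41528308, minus) are the type I members of the other cluster.

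The start region of KRT10, 1 of the 2 members with a RefSeq promoter entry, is shown as an example. Like KRT80 and KRT81, KRT10 was higher in CRISPR Control than in every other line. Any part of the start region in this was not tested. The window (17:40822565-40822864, minus strand) is the RefSeq entry (GRCh38.p14), 250 bases before to 50 bases after the gene's start. Capitals mark every match to the searched motifs on either strand.
KRT10: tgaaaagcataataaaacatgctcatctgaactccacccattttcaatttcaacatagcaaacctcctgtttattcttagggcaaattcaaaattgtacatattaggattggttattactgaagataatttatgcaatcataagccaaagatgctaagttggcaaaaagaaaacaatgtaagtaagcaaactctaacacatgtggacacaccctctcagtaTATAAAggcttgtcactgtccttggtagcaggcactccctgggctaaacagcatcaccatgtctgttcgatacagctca
The KRT10 window held 1 match to TATAAA, which is the core of the TATA box, at position -29 from its start. It held none to the TEAD motif CATTCC, the E-box CACCTG, the GC box GGGCGG or the AP-1 motif TGANTCA. Of 35116 promoters of the same length, 11.5% held the TATA match, 14% the TEAD motif, 20.6% the E-box, 45% the GC box and 7.71% the AP-1 motif.

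Sequence shared with other genes bears on how well reads can be assigned. Of all 100-base windows in the canonical transcript, 30.3% of those of KRT81 also occurred in another gene, mostly in the hair keratin gene KRT86. The share was 18.5% for KRT18, all of it in the overlapping gene model of KRT8, 8.32% for KRT7 and 7.12% for KRT8. It was 0 for KRT10, KRT19 and KRT80. The longest coding run that KRT81 and KRT86 share was 309 bases, of which the first 150 are printed (12:52291256-52291405, minus strand). Reads that lie wholly within the run cannot by themselves separate the 2 genes. The printed stretch is in lower case throughout.
KRT81: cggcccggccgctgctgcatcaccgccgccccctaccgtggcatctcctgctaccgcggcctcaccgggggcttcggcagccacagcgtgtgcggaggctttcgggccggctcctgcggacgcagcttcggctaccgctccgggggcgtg
Few of the counted reads were assigned to pseudogenes. How reads that match both a gene and a pseudogene were counted was not tested. The 50 KRT8 pseudogenes in the table summed to 0.995% of the KRT8 level, and the 67 KRT18 pseudogenes to 0.252% of the KRT18 level.

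Libraries held 26908701 to 36093563 reads in genes, and the log2 levels of replicate libraries had an r of 0.990 to 0.993 over genes. No pair of replicates was alike within sampling noise (mean chi-square 4.61 to 29.7 a gene), and the 3 highest values were those of the CRISPR Control pairs. TIMP1 RNA was lower in the KO clones, at 1600 ± 32.8 (KO 1) and 1161 ± 28.8 (KO 2) normalised counts, than in the WT libraries with 3553 ± 274 and CRISPR Control with 2690 ± 357 (SD, n = 3). CRISPR Control was itself lower than WT for TIMP1 (log2 fold change -0.41, limma adjusted p = 0.000769). Of the epithelial markers, EPCAM averaged 1299 to 2036 normalised counts in the 4 lines. MUC1 averaged 584 in WT and 319 in CRISPR Control but 896 in KO 1 and 795 in KO 2. CDH1 (E-cadherin) averaged 1189 in WT and 1424 in CRISPR Control but 128 in KO 1 and 84.9 in KO 2. The mesenchymal markers were present too, with VIM (vimentin) at 58625 to 93176 and ZEB1 at 954 to 1288. CDH2 (N-cadherin) averaged 571 in WT and 1110 in CRISPR Control but 93.7 in KO 1 and 384 in KO 2. The 7 erythroid markers, which would show cells of the K562 line also grown in the study, summed to 0 to 3.03 in every library. The 6 leukocyte markers summed to 37.3 to 49.5 in WT, 38.5 to 41.5 in CRISPR Control, 76.9 to 89.7 in KO 1 and 158 to 175 in KO 2. Only CD14 of these 6 passed the filter on low values, and the part of this rise in any keratin result was not tested. In RNA from whole cultures, fewer cells that express a gene and less RNA per cell cannot be told apart.

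KRT8 and KRT18, the simple-epithelial pair, were the most abundant type II and type I members in WT, and the line that stood furthest from WT was CRISPR Control, in which both were more than 3-fold lower. KO 1 did not pass the test against WT for either gene, and KO 2 lay below WT by a smaller step. KRT8 gave 138359, 122928 and 128697 normalised counts in the 3 WT libraries, against 34968, 39858 and 45063 for CRISPR Control. It gave 137428, 134219 and 135354 for KO 1, and 91072, 97421 and 100662 for KO 2. The CRISPR Control libraries lay below all others, KO 2 lay between them and the rest, and KO 1 fell within the range of WT.

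In CRISPR Control, KRT8 was 3.27-fold lower than in WT (log2 fold change -1.71, SE 0.09, limma adjusted p = 1.25e-11). In KO 2 it was 1.35-fold lower than in WT (log2 fold change -0.43, limma adjusted p = 0.000492), a call that was lost with quantile normalization (-0.12, limma adjusted p = 0.27). Between KO 1 and WT the log2 difference was 0.06 with a 95% confidence interval from -0.13 to 0.25 (limma adjusted p = 0.625). The order of the line means was KO 1, WT, KO 2 and CRISPR Control, in which only the first neighbours did not differ with the deposited scaling.

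KRT18, the type I partner of KRT8, followed the same order. Its normalised counts were 58247, 51793 and 52444 for WT, and 14596, 17071 and 19068 for CRISPR Control. KO 1 had 57158, 55797 and 54427, and KO 2 had 34426, 34363 and 36502. As for KRT8, the CRISPR Control and KO 2 libraries formed separate lower groups while KO 1 overlapped WT. KRT18 was 3.22-fold lower in CRISPR Control than in WT (log2 fold change -1.69, SE 0.09, limma adjusted p = 8.62e-12) and 1.54-fold lower in KO 2 (log2 fold change -0.62, limma adjusted p = 6.22e-06). The log2 difference between KO 1 and WT was 0.04, with a 95% confidence interval from -0.14 to 0.23.

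KRT19, the ductal type I keratin, was higher in both KO clones than in WT and lower in CRISPR Control. WT libraries gave 16832, 15284 and 15006 normalised counts, and CRISPR Control 3792, 4635 and 5321. KO 1 libraries had 26463, 23510 and 23800, and those of KO 2 had 47228, 50841 and 59423. No line overlapped another, and all 6 KO libraries lay above all 6 libraries of WT and CRISPR Control. KRT19 was 1.57-fold higher in KO 1 than in WT (log2 fold change 0.65, SE 0.11, limma adjusted p = 9.24e-05) and 3.33-fold higher in KO 2 (1.74, limma adjusted p = 1.15e-10). In CRISPR Control it was 3.46-fold lower than in WT (log2 fold change -1.79, limma adjusted p = 6.64e-11). The order KO 2, KO 1, WT and CRISPR Control had no neighbours that failed the test.

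KRT7, the ductal type II keratin, was scarce, with 85 to 215 reads in a library. Its normalised counts were 114, 79.1 and 81.0 for WT, and 89.8, 113 and 134 for CRISPR Control. KO 1 had 116, 116 and 132, and KO 2 had 167, 189 and 217. The KO 2 libraries lay above all 9 others, KO 1 lay above WT by a small margin, and CRISPR Control overlapped both. KRT7 was 2.09-fold higher in KO 2 than in WT (log2 fold change 1.06, SE 0.18, limma adjusted p = 5.61e-05). The log2 difference from WT was 0.42 in KO 1 (95% confidence interval 0.04 to 0.79, limma adjusted p = 0.0758) and 0.29 in CRISPR Control (-0.08 to 0.67, limma adjusted p = 0.176). Without WT replicate 1 these became 0.59 (limma adjusted p = 0.0228) and 0.46 (limma adjusted p = 0.0467), so that 1 library decided both calls. KRT7 overlaps the antisense gene KRT7-AS, which averaged 0 to 2.59 normalised counts in the lines. Its gene model also overlaps that of KRT86 on the same strand, which averaged 43.5 to 70.0. All windows that the canonical KRT7 transcript shared with another gene were in KRT7-AS. Whether reads were split between KRT7 and KRT86 was not tested.

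KRT80 ran opposite to KRT19 between the lines. It fell in both KO clones to about the same level and rose in CRISPR Control. WT libraries gave 1339, 1326 and 1368 normalised counts, CRISPR Control 3060, 2639 and 3259, KO 1 457, 438 and 524, and KO 2 498, 557 and 498. The KO clones overlapped each other and lay below all WT libraries, which in turn lay below all CRISPR Control libraries. KRT80 was 2.85-fold lower in KO 1 than in WT (log2 fold change -1.51, SE 0.09, limma adjusted p = 3.16e-10) and 2.60-fold lower in KO 2 (-1.38, limma adjusted p = 4.71e-10). It was 2.21-fold higher in CRISPR Control than in WT (log2 fold change 1.15, limma adjusted p = 6.48e-09). Between the clones the log2 difference was 0.13, with a 95% confidence interval from -0.06 to 0.33 (limma adjusted p = 0.279). KRT80 overlaps LINC00592 on the opposite strand, which averaged 4.57 to 9.36 normalised counts in the lines.

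KRT81, the hair keratin, was also highest in CRISPR Control. Its normalised counts were 118, 112 and 98.1 for WT and 244, 314 and 314 for CRISPR Control. KO 1 had 74.5, 70.9 and 88.3, and KO 2 had 90.3, 112 and 97.9. CRISPR Control lay above all other libraries, KO 1 lay below the rest, and KO 2 overlapped WT. KRT81 was 2.64-fold higher in CRISPR Control than in WT (log2 fold change 1.40, SE 0.16, limma adjusted p = 4.47e-07). It was 1.40-fold lower in KO 1 (log2 fold change -0.48, limma adjusted p = 0.0204), a call that was lost without WT replicate 1 or 2 or KO 1 replicate 1 or 2, where the adjusted p was 0.0777, 0.0562, 0.0622 and 0.0801 by limma. The log2 difference between KO 2 and WT was -0.13 (95% confidence interval -0.45 to 0.20), and with quantile normalization it was -0.44 and passed (limma adjusted p = 0.0198).

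Reads of KRT81 are partly shared with KRT86, as the printed run shows, and the KRT86 mean was 43.5 ± 8.32 normalised counts (SD, n = 3) for WT, 70.0 ± 5.09 for CRISPR Control, 52.8 ± 5.09 for KO 1 and 55.4 ± 10.1 for KO 2. KRT86 was also higher in CRISPR Control than in WT (log2 fold change 0.69, limma adjusted p = 0.00825), so the KRT81 values are uncertain in how reads were split between the pair.

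KRT10, the epidermal type I keratin, had the smallest span between lines of the 7, since its largest absolute log2 difference between any pair of lines was that of KO 1 from CRISPR Control (-0.57). Its normalised counts were 1312, 1213 and 1227 for WT and 1521, 2034 and 1737 for CRISPR Control. KO 1 had 1171, 1282 and 1099, and KO 2 had 1090, 1184 and 1291. CRISPR Control lay above all others, and the remaining 3 lines overlapped. KRT10 was 1.40-fold higher in CRISPR Control than in WT (log2 fold change 0.49, SE 0.10, limma adjusted p = 0.000438). The log2 differences of KO 1 and KO 2 from WT were both -0.08, with 95% confidence intervals from -0.29 to 0.13.

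Counted over the members, 6 of 7 differed between CRISPR Control and WT (3 higher and 3 lower by limma), where 53.4% of all genes tested differed (27.2% higher and 26.3% lower). Here 5 of the 7 passed with an absolute log2 fold change of at least 1, as did 14.7% of all genes. The median absolute log2 fold change was 1.40 over the members and 0.35 over all genes. Against CRISPR Control it was 1.77 for KO 1 (0.44 over all genes) and 1.28 for KO 2 (0.52). The members were chosen with earlier results of these data known, so these medians only describe them. KO 2 differed from WT in 5 members, 2 higher and 3 lower, where 55.0% of all genes differed (27.1% higher and 27.9% lower). KO 1 differed from WT in 3, KRT19 higher and KRT80 and KRT81 lower, where 35.5% of all genes did (18.0% higher and 17.5% lower). With an absolute log2 fold change of at least 1, 3 members passed for KO 2 (14.7% of all genes) and 1 for KO 1 (8.21%). With 7 members chosen in this way, none of these counts is read as particular to keratins. Libraries did not overlap in 6 of 7 members between CRISPR Control and WT (55.8% of all genes), in 5 between KO 2 and WT (62.9%) and in 4 between KO 1 and WT (52.6%). All 3 comparisons use the same WT libraries. From the highest to the lowest line mean, KRT7 ran KO 2, KO 1, CRISPR Control and WT with only the first neighbours differing. KRT80 ran CRISPR Control, WT, KO 2 and KO 1 with only the last neighbours not passing, and KRT81 and KRT10 had the same order with only the first neighbours differing.

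**Figure D1:**
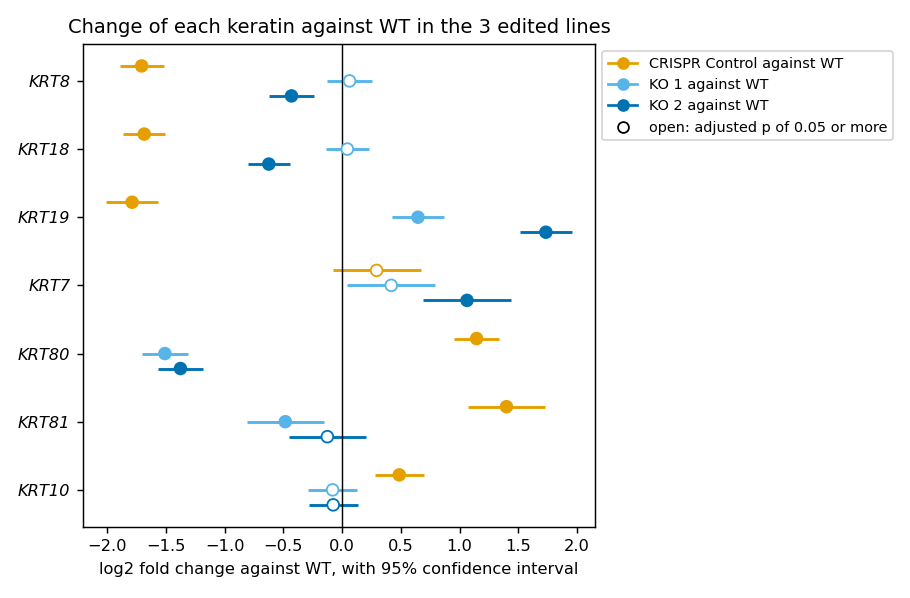
Log2 fold change against WT (x axis) of each keratin (y axis) in CRISPR Control, KO 1 and KO 2, with bars for the 95% confidence interval and open points where the limma adjusted p was 0.05 or more. KRT8 and KRT18 lie near -1.7 only in CRISPR Control, KRT19 lies on opposite sides of 0 in CRISPR Control and in the KO lines, and so does KRT80.

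CRISPR Control is the edited line whose TIMP1 protein sequence is unchanged. Against it, 6 of 7 members differed in KO 1, 3 higher and 3 lower, where 63.0% of all genes did (31.7% higher and 31.3% lower). In KO 2, 7 of 7 differed, 4 higher and 3 lower, where 67.7% of all genes did (33.3% higher and 34.4% lower). The members that passed were those whose libraries did not overlap (65.1% of all genes for KO 1 and 67.7% for KO 2). The values follow from the levels above. KRT8 was 3.41-fold higher in KO 1 and 2.42-fold higher in KO 2 than in CRISPR Control, and KRT18 3.32-fold and 2.09-fold higher (limma adjusted p from 2.38e-12 to 2.90e-09). KRT19 was 5.41-fold and 11.5-fold higher, while KRT80 was 6.30-fold and 5.75-fold lower and KRT81 3.69-fold and 2.88-fold lower. KRT7, with a log2 difference of 0.12 in KO 1 (95% confidence interval -0.25 to 0.50), was the member that did not pass there.

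The mean of both KO lines was tested against the mean of WT and CRISPR Control. With 2 lines on each side, the loss of TIMP1 and other differences between lines cannot be told apart. The p-values measure the spread between libraries, not between lines. All 7 members passed this test (4 higher and 3 lower by limma), where 65.9% of all genes did (32.9% higher and 33.0% lower), and KRT19, KRT80 and KRT81 had an absolute log2 fold change of at least 1 (14.5% of all genes). The 6 KO libraries lay on 1 side of the 6 others for KRT19 and KRT80 only, that is for 2 of 7 members against 24.7% of all genes. KRT19 was 4.24-fold higher (log2 fold change 2.09, SE 0.07, limma adjusted p = 1.64e-14) and KRT80 4.04-fold lower (log2 fold change -2.02, SE 0.07, limma adjusted p = 4.29e-15).

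Each control line was then taken alone, an alternative chosen after the values were seen. KRT8 was 1.59-fold higher in the KO lines against the mean of both control lines (log2 fold change 0.67) and had a log2 difference of -0.18 against WT alone (limma adjusted p = 0.0573) and 1.52 against CRISPR Control alone. KRT18 changed direction, from 0.55 against both to -0.29 against WT alone (limma adjusted p = 0.00339) and 1.40 against CRISPR Control alone. KRT10 (1.25-fold lower against both) and KRT81 (2.01-fold lower against both) kept their direction against WT alone at -0.08 (limma adjusted p = 0.473) and -0.30 (limma adjusted p = 0.0678), without passing the test. KRT7, KRT19 and KRT80 passed against both, against WT alone (0.74, 1.19 and -1.44 on the log2 scale) and against CRISPR Control alone (0.45, 2.98 and -2.59). These are means of both clones. For KRT7, KO 1 by itself passed neither against WT (0.42, limma adjusted p = 0.0758) nor against CRISPR Control (0.12, limma adjusted p = 0.560). Whether a keratin differed between the KO and control lines thus depended on the control line for KRT8, KRT10 and KRT81. KRT18 passed against each control line alone, but in opposite directions.

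The clones also differed from each other. Between KO 2 and KO 1, 4 of 7 members passed (2 higher and 2 lower by limma), where 38.2% of all genes did (18.1% higher and 20.1% lower). Only KRT19 also had an absolute log2 fold change of at least 1 (8.25% of all genes), and the libraries of 5 members did not overlap (53.1% of all genes). KRT19 was 2.13-fold higher in KO 2 (log2 fold change 1.09, limma adjusted p = 1.74e-07) and KRT7 1.56-fold higher (0.65, limma adjusted p = 0.00763). KRT18 was 1.59-fold lower (log2 fold change -0.67, limma adjusted p = 6.03e-06) and KRT8 1.41-fold lower (-0.49, limma adjusted p = 0.000244). KRT10 and KRT80 had intervals from -0.20 to 0.21 and from -0.06 to 0.33. KRT81 had 0.36 (limma adjusted p = 0.077) although its libraries did not overlap, and 0.46 (limma adjusted p = 0.0237) with equal library totals. With quantile normalization in place of the deposited scaling, KRT8 (-0.20, limma adjusted p = 0.082) and KRT7 (0.44, limma adjusted p = 0.0599) did not pass between the clones.

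Levels of different genes were set side by side per kilobase of the canonical transcript. On this scale KRT8 had 72867 normalised counts per kilobase in WT, KRT18 38331 and KRT19 11300, while KRT10 had 584, KRT80 347, KRT81 56.6 and KRT7 56.3. In KO 2, KRT19 with 37768 stood above KRT18 with 24839, and KRT8 had 54028. KRT19 was below KRT18 in the other 3 lines. Per kilobase of all annotated exons, a longer length for KRT8 in particular, KRT19 was highest of the 7 in KO 2 (22473 against 14007 for KRT8), so the first place in KO 2 depended on the length used. The 7 keratins took 0.643% ± 0.0295 (SD, n = 3) of the reads of WT libraries, 0.688% ± 0.0115 of KO 1, 0.630% ± 0.0364 of KO 2 and 0.208% ± 0.0209 of CRISPR Control.

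The ratio of KRT18 to KRT8, per kilobase, was close in CRISPR Control, where the pair was low, and in WT. It was 0.532, 0.532 and 0.514 for WT and 0.527, 0.541 and 0.534 for CRISPR Control. It was 0.525, 0.525 and 0.508 for KO 1 and 0.477, 0.445 and 0.458 for KO 2. WT overlapped CRISPR Control and KO 1, CRISPR Control lay above KO 1, and KO 2 lay below the other 3 lines. The gene models of the pair overlap, and the strand setting of the read counting is not given in the sources used here, so a part of this ratio could come from reads of the shared stretch, which was not tested.

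The ratio of KRT19 to KRT18 separated the lines further. It ran from CRISPR Control (0.275 ± 0.00987), through WT (0.295 ± 0.00466) and KO 1 (0.448 ± 0.0214) up to KO 2 (1.52 ± 0.131, SD, n = 3). KRT19 made up 22.5% ± 0.274 of the type I RNA of the 3 type I members in WT and 20.4% ± 0.650 in CRISPR Control. It made up 30.6% ± 1.03 in KO 1 and 59.7% ± 2.03 in KO 2. The ratio of type I to type II RNA over the members was 0.685 for WT, 0.687 for CRISPR Control, 0.757 for KO 1 and 1.16 for KO 2. Per kilobase of all annotated exons it was 1.29, 1.24, 1.47 and 2.42 in the same order, so which type was the more abundant depended on the length used, while KO 2 had the highest ratio on both scales.

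Over the 12 libraries, log2 levels of KRT8 and KRT18 correlated with r = 0.992, KRT80 and KRT81 with r = 0.901, and KRT10 and KRT81 with r = 0.901. KRT19 and KRT80 gave r = -0.919, and KRT8 and KRT81 r = -0.920. The 12 points are 4 lines with 3 libraries each, so these values describe mainly the 4 line means. Among 11642 genes with a mean of at least 100, the most alike pattern was that of PXDC1 (r = 0.998) and CAVIN1 (0.995) for KRT8, of TARS2 (0.995) and AFAP1L1 (0.993) for KRT18, and of IL15RA (0.996) and CNIH3 (0.995) for KRT19. For KRT80 it was NTS (0.995) and CBFA2T3 (0.994), for KRT81 NQO1 (0.988) and COTL1 (0.983), for KRT10 UQCRH (0.980) and COX7C (0.972), and for KRT7 P4HA2 (0.960) and NUP50-AS1 (0.950).

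The rest of the keratin family was little expressed. Of 48 other keratin genes, 8 passed the filter on low values and 11 had no read in any library. KRT5, a keratin of the basal layer, was near the floor and averaged 1.08 to 3.15 normalised counts in the lines. In the KO lines against both control lines, 3 of the 8 were higher and 2 lower by limma, where 32.9% and 33.0% of all genes were, and the median log2 fold change was -0.09 against 0.00 over all genes. Only KRT15 and KRT32 had a mean of at least 100, and both lie in the type I cluster between KRT10 and KRT19.

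KRT15, a type I keratin of basal epithelial cells, gave 289, 227 and 211 normalised counts in the WT libraries and 213, 244 and 220 in those of CRISPR Control. KO 1 gave 320, 309 and 312, and KO 2 gave 653, 688 and 678. KRT32, a type I hair keratin, averaged 54.3 ± 3.70 for WT, 27.0 ± 2.49 for CRISPR Control, 94.0 ± 8.35 for KO 1 and 255 ± 30.5 for KO 2 (SD, n = 3). For both genes all 6 KO libraries lay above all 6 others, and KO 2 lay above KO 1. The log2 fold change between KO and control lines was 0.98 (limma adjusted p = 4.44e-09) for KRT15 and 1.98 (limma adjusted p = 3.31e-11) for KRT32. KRT4, a type II keratin with the lowest log2 fold change of the list, had 5, 1 and 12 reads in the WT libraries, 32, 47 and 62 in those of CRISPR Control and at most 3 in every KO library. Neither KO 1 (log2 difference -0.68, limma adjusted p = 0.412) nor KO 2 (-0.88, limma adjusted p = 0.230) passed against WT for KRT4, and CRISPR Control was higher than WT (3.16, limma adjusted p = 0.000244).

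Among the genes that share filaments or attach them, most of those tested for anchoring were lower in the KO lines than in both control lines together. Of 19 tested genes of desmosomes, hemidesmosomes and plakins, which tie keratin to cell contacts, 12 were lower and 3 higher by limma. Of all genes, 33.0% were lower and 32.9% higher, and the median log2 fold change was -0.29 against 0.00 over all genes. Against WT alone, 8 were lower and 3 higher in KO 1 (17.5% and 18.0% of all genes). In KO 2, 11 were lower and 3 higher than in WT (27.9% and 27.1%). CRISPR Control was itself higher than WT in 11 and lower in 6 (27.2% and 26.3%). PKP2 (plakophilin 2, a desmosome plaque protein) had a mean of 297 ± 33.0 normalised counts for WT, 1200 ± 39.1 for CRISPR Control, 9.69 ± 4.65 for KO 1 and 24.7 ± 4.85 for KO 2 (SD, n = 3), a log2 fold change of -5.24 between KO and control lines. DSC2 (desmocollin 2, a desmosomal cadherin) moved the other way, with means of 1733 and 1464 for WT and CRISPR Control against 2029 and 2465 for the clones (log2 fold change 0.49, limma adjusted p = 7.56e-07).

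Of 10 tested intermediate filament genes other than keratins, 4 were higher (VIM, BFSP1, LMNA and SYNM) and 5 lower (NEFH, LMNB1, PRPH, INA and LMNB2). Of all genes, 32.9% were higher and 33.0% lower, and the list median was -0.33. Several of these calls depended on the control line. Against WT alone by limma, both clones were higher for BFSP1 and SYNM and lower for LMNB1, INA, LMNB2 and NES. VIM passed against WT only in KO 1, LMNA only in KO 2, and NEFH and PRPH in neither. BFSP1, a filament protein of the eye lens, rose 1.63 on the log2 scale, with means of 427 and 132 for WT and CRISPR Control against 700 and 779 for the clones. INA, the neuronal filament protein internexin, averaged 282 in WT and 1453 in CRISPR Control, and the 6 KO libraries held 0 or 1 read each.

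Of 23 tested genes of epithelial identity, 13 were lower and 6 higher, where 33.0% and 32.9% of all genes were, with a median of -0.27. CDH3 (P-cadherin) averaged 7.76 in KO 1 and 33.9 in KO 2 against 427 in WT and 1319 in CRISPR Control (log2 fold change -5.49, limma adjusted p = 3.30e-15). CLDN3, a claudin of tight junctions, rose from 164 and 148 in WT and CRISPR Control to 462 and 592 in KO 1 and KO 2 (1.75, limma adjusted p = 6.64e-11).

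Pancreatic tumours are often sorted into basal-like and classical expression types, in which keratins are among the markers. Of the 7 tested basal-like genes other than keratins, 2 were higher and 3 lower, where 32.9% and 33.0% of all genes were, with a median of -0.01. DHRS9, a short-chain dehydrogenase, averaged 652 in KO 2 and only 45.6 in WT, 35.7 in KO 1 and 16.8 in CRISPR Control. AREG, a ligand of the epidermal growth factor receptor, averaged 110 in WT and 93.9 in CRISPR Control and had 0 to 4 reads in each KO library. Of the 6 tested classical genes, 5 were higher and 0 lower by limma, against the same shares of all genes, with a median of 1.29. In KO 1, 3 were higher than in WT (18.0% of all genes). Against CRISPR Control, KO 1 was higher in 2 and lower in 1 (31.7% and 31.3%). In KO 2, 5 were higher than in WT (27.1%) and 6 than in CRISPR Control (33.3%). TSPAN8, a tetraspanin, had 0 or 1 read in each WT and CRISPR Control library, 2 to 8 in KO 1 and 66 to 80 in KO 2. GATA6, a transcription factor of the classical type, averaged 175 in KO 2, 102 in CRISPR Control, 35.8 in KO 1 and 18.8 in WT (log2 fold change 0.83, limma adjusted p = 0.000374), with KO 1 below CRISPR Control. Setting lines at or under 3 reads to 3 reads changed at most 2 genes of a list and left every list median where it was. So few genes can hardly move a median, so this says little about the lists.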

How the data were processed

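The members and gene lists were chosen with earlier results of these data known. RNA of 12 MIA PaCa-2 libraries, grouped by sample title, was sequenced. The authors trimmed reads with Cutadapt, mapped them to GRCh38 with STAR, counted them per gene with featureCounts and divided each library by a DESeq2 size factor, so the deposited values are a signal of scaled read counts. The strand setting and annotation release are not given in the sources used here. Dividing by each library's step returned whole reads for 100% of values within 0.01, and gave the depth of 26908701 to 36093563 reads. A blank row and 4 columns of the authors' means were left out.

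limma 3.58.1 (R 4.3.3) was run on log2(normalised count + 1) of the 15987 genes with a mean of at least 10, over all 12 libraries, with a trend. Tests were two-sided with Benjamini-Hochberg adjustment over all genes tested and a threshold of 0.05, here called passing. Fold changes are on that scale and understate those of low genes. Floors of 3 reads and intervals cover counting error or replicate spread only. edgeR 4.0.16 and DESeq2 1.42.0 on the recovered reads were alternatives. The script was tested on simulated data. Same-numbered libraries of different lines correlated in their deviations with r from -0.129 to 0.16, so the numbers were not treated as pairs. The genes named were the 7 keratins, TIMP1, other keratins with a mean of at least 100, the highest and lowest passing gene of each list, marker genes, the 2 most alike genes per keratin and near copies. KRT5 was named in addition, after its values were seen. Lists covered other keratins, other intermediate filament proteins, anchoring, epithelial identity, basal-like and classical genes, and erythroid and leukocyte markers. Gene models and the genome sequence were GENCODE and hg38. 2 of 7 members had an entry in the RefSeq promoter table, of which 1 is not reported here. Canonical transcript length was used for levels per kilobase.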

Additional observations from a re-analysis of the deposited data

Results flagged for a closer look

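The effect against WT differed between the KO clones for 5 genes, by the limma test of KO 2 against KO 1 (3 libraries each). The difference was 0.65 on the log2 scale for KRT7 (limma adjusted p = 0.00763), 1.09 for KRT19 (limma adjusted p = 1.74e-07), -0.49 for KRT8 (limma adjusted p = 0.000244), -0.67 for KRT18 (limma adjusted p = 6.03e-06) and -0.46 for TIMP1 (limma adjusted p = 0.000398). For each of these genes all 3 KO 2 libraries lay on 1 side of all 3 KO 1 libraries, as 53.1% of all genes did.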

How the results depend on the processing

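Each of the 49 values (7 keratins in 7 comparisons) was recomputed under 22 alternatives, 1078 values in all. Direction and side of the threshold stayed the same in 1061, and in every alternative for 37 of the 49. Part of this was fixed in advance. The filters on low values, the fit without a trend and the replicate block cannot change a fold change, only its p-value. The same holds for leaving out a library of a line that is not compared. The count of keratins passing with an absolute log2 fold change of at least 1 was 1 for KO 1 against WT (8.21% of all genes) and 3 for KO 2 against WT (14.7%). It was 1 for KO 2 against KO 1 (8.25%) and 3 for the KO lines against both control lines (14.5%). Of the lists, that minimum left 4 other filament, 7 anchoring, 8 epithelial and 3 basal-like genes, where it left 14.5% of all genes. With no filter on low values 11 other keratins passed, with a mean of at least 50 only 2, and 2 classical genes. With WT alone as the control, chosen after the values were seen, 4 members and 3 other keratins passed, and KRT8 and KRT18 reversed to -0.18 and -0.29. The shares of all genes passing with these filters or with WT alone are not given. Those counts are therefore not read as results about any list.

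Quantile normalization left 2 keratins passing between KO 2 and KO 1, took KRT8 in KO 2 against WT to -0.12 (limma adjusted p = 0.27) and KRT18 in KO 1 against WT to -0.052, and brought KRT81 in KO 2 against WT to -0.44 (limma adjusted p = 0.0198). The cause was not tested. Equal library totals shifted the median of all genes by up to 0.11 (KO 2 against CRISPR Control) and gave KRT10 in KO 2 against WT 0.019 and KRT81 in KO 2 against KO 1 0.46 (limma adjusted p = 0.0237). Leaving out 1 library turned KRT7 in KO 1 against CRISPR Control to values from -0.025 to 0.26 and KRT10 in KO 2 against KO 1 to values from -0.057 to 0.065, none of which passed. With 1 library left out, the count of keratins passing ran from 2 to 3 for KO 1 against WT and from 6 to 7 for CRISPR Control against WT, and was unchanged in the other 5 comparisons.

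With the replicate number as a block, 3, 5, 6, 6, 7, 4 and 7 keratins passed in KO 1 and KO 2 and CRISPR Control against WT, KO 1 and KO 2 against CRISPR Control, KO 2 against KO 1 and the KO against control lines, as without the block. 4 of 12 libraries correlated best with their own number. edgeR and DESeq2 changed no keratin call. KRT7 and KRT81 had the lowest counts of the 7 keratins, and depth was not varied.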
